A study of Mus musculus with 8 samples.

Results

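The transporters that carry bile acids and other organic anions into and out of hepatocytes were compared in liver of NZO and B6 mice. The members were fixed by name: 5 uptake carriers (Slc10a1, Slco1a1, Slco1a4, Slco1b2, Slco2b1), 3 pumps of the bile canaliculus (Abcb11, Abcb4, Abcc2) and 2 pumps that export to blood (Abcc3, Abcc4). These 10 of 34836 gene names on the array were measured by 13 of its 55681 probes, and every one of the 13 was well above background on all 8 arrays and entered the test.

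RNA came from liver of male mice, 4 of the obese strain NZO (NZO/HiBomDife) and 4 of the lean strain B6 (C57BL/6), each hybridised to its own 1-colour Agilent array. All 8 mice were 6 weeks old and had received a diet with 45% fat, so no group on another diet enters the comparison. The level of a probe is the log2 processed signal minus the 75th percentile of its array, which was an intensity of 119 to 142 in NZO and of 136 to 159 in B6. Between 50.4% and 55.0% of spots in NZO and between 53.1% and 60.1% in B6 were well above background, no spot was saturated, and the small number of arrays limits the precision. The tissue label was checked against hepatocyte markers. The markers Alb, Ttr, Apoa1, Cps1 and Tat were above background on all 8 arrays. Limma called 0 of these 5 genes after adjustment or at an unadjusted p under 0.05, against 1 by the methods' t-test after adjustment (median log2 fold change 0.00). Among all gene names tested, 7.85% had only higher and 8.63% only lower calls, so these counts tell little about the 5 markers. Their summed signal, as multiples of the 75th percentile, was 3871, 3917, 3854 and 3789 in NZO mice 007, 003, 009 and 011, and 3203, 3766, 3652 and 3002 in B6 mice 011, 010, 015 and 009. The sum, in which Alb is brightest, was thus higher in NZO without overlap, whereas the mean log2 level of the 5 ranged from 8.30 to 8.48 in NZO and from 8.20 to 8.56 in B6.

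Bile acids circulate between liver and gut. Slc10a1 (NTCP), the sodium-dependent carrier, and the OATP carriers encoded by the Slco genes take bile acids, bilirubin conjugates, hormones and many drugs from sinusoidal blood. At the canalicular membrane Abcb11 (BSEP) pumps bile acids into bile, Abcb4 (MDR2) moves phosphatidylcholine to the outer leaflet, and Abcc2 (MRP2) exports glutathione and glucuronide conjugates. Abcc3 (MRP3) and Abcc4 (MRP4) lie in the basolateral membrane and return conjugates and bile acids to blood, a route best known from cholestasis. The nuclear receptors FXR (Nr1h4) and CAR (Nr1i3) are known regulators of this set.

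Each probe holds 60 bases of the mouse reference and its position is given on mm9. The middle 30 bases of the 3 probes that differed between the strains are shown first, since these genes have no other probe on the array. They lie in transcripts of Abcb11 (A_55_P2028029, chr2:69076365-69076424), Abcc3 (A_55_P1985623, chr11:94204612-94204671) and Slco1a4 (A_51_P335569, chr6:141754675-141754734), all on the minus strand. No other gene's probe shares a stretch of 20 bases with any of the 3. A lower transcript level in NZO and a base difference of NZO under such a probe cannot be told apart on this array.
Abcb11: tgcaagcaatggaaatgcatcggaatctta
Abcc3: ctggtgctgtctgagtccactgatgaaata
Slco1a4: gtgattgcctaatacatgtgaggccctgag

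The probes of Slc10a1 are shown because the files do not tie both to this gene alone. Probe 1 (A_55_P1954987, chr12:82056539-82056598) is listed in the files with RefSeq transcripts of Slc10a1, 4930402H24Rik, Spc24 and Med16. Of its 60 bases, 29 lie in stretches of 20 or more that probes of 3 other genes also hold, marked in capitals, and the sequence has the appearance of the B1 repeat that is scattered through mouse transcripts. Its level may therefore include other transcripts. Probe 2 (A_52_P69109, chr12:82061470-82061529) is listed with Slc10a1 transcripts alone and shares no such stretch.
Slc10a1 probe 1: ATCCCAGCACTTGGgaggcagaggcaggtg
Slc10a1 probe 2: tgttatcactcgtcatggttctcattcctt

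Abcb11, Abcc3 and Slco1a4 were lower in NZO than in B6, by 2.19-fold, 2.37-fold and 1.90-fold, and no transporter probe was higher. The other 10 probes, which cover Slc10a1, Slco1a1, Slco1b2, Slco2b1, Abcb4, Abcc2 and Abcc4, did not pass the adjusted threshold. A probe was called when its Benjamini-Hochberg adjusted p from limma, over all 27643 probes tested, was at or below 0.05. Of all probes tested, 6.78% were called higher and 7.44% were called lower in NZO. Against this background limma called 0 of the 13 transporter probes higher and 3 lower. At an unadjusted p under 0.05, 1 was higher (Slc10a1 probe 2), and the methods' t-test called 0 higher and 2 lower after adjustment. At the cutoffs that the methods name (unadjusted p of 0.05, log2 fold change of 0.7 in size) the fit passed 5.17% of all probes as higher and 7.08% as lower, and for the transporters again 0 and 3. The values of the strains did not overlap for 22.0% of all probes and for 3 of the 13 transporter probes. The median log2 fold change (NZO minus B6) was 0.02 for the transporter probes and 0.01 for all probes tested, and the median absolute log2 fold change was 0.17 and 0.24. In whole tissue, fewer cells of a type and less RNA in each cell cannot be told apart.

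**Figure D1:**
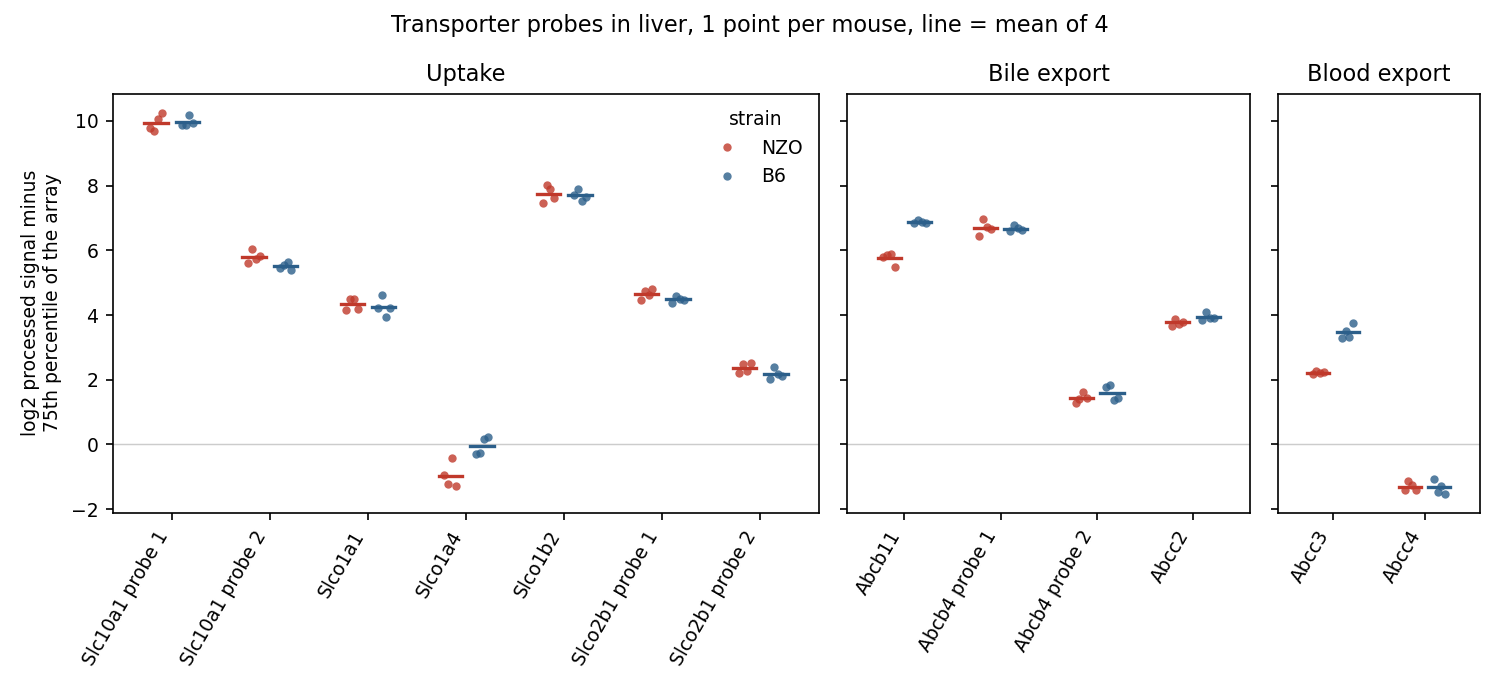
Level of each transporter probe (vertical axis, log2 processed signal minus the 75th percentile of the array) in 4 NZO (red) and 4 B6 (blue) mice, 1 point per mouse with a line at the mean, in panels by direction of transport. The strains separate for Slco1a4, Abcb11 and Abcc3 and overlap for the other 10 probes. Heights of different probes are not comparable.

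Abcb11, the bile salt export pump, moves bile acids from the hepatocyte into bile. Its level was 5.79, 5.85, 5.88 and 5.47 in NZO mice 007, 003, 009 and 011. In B6 mice 011, 010, 015 and 009 it was 6.83, 6.94, 6.89 and 6.86. All 4 NZO values lay below all B6 values, the B6 mice were within a narrow range, and NZO 011 was the lowest. The means were 5.75 ± 0.19 in NZO and 6.88 ± 0.05 in B6 (SD, n = 4 each). The log2 fold change was -1.13 (SE 0.11, 95% confidence interval -1.39 to -0.87, limma adjusted p = 0.000328). Among all probes tested, 1084 fell further. With the slide as a fixed term, which leaves the comparison to 1 NZO and 2 B6 mice, the log2 fold change was -1.07. The mouse number as a replicate block leaves the comparison to mice 009 and 011 of each strain. With it the log2 fold change was -1.17 and the call was lost (limma adjusted p = 0.0965). Within the first scan day (3 NZO and 2 B6 mice) the difference was -1.18, and within the second (1 NZO and 2 B6 mice) it was -1.05.

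Abcc3 exports bile acids and glucuronides across the basolateral membrane to blood. Its level was 2.19, 2.26, 2.2 and 2.23 in NZO mice 007, 003, 009 and 011, and 3.30, 3.49, 3.32 and 3.76 in B6 mice 011, 010, 015 and 009. The NZO mice were nearly alike and all below the B6 mice, of which B6 009 was the highest. The means were 2.22 ± 0.03 in NZO and 3.47 ± 0.21 in B6 (SD, n = 4 each). This was the largest difference among the 13 probes, with a log2 fold change of -1.25 (SE 0.12, 95% confidence interval -1.52 to -0.97, limma adjusted p = 0.000264). The difference was -1.17 and -1.34 within the first and the second scan day and -1.15 within the slide that held both strains. The adjusted p was 0.044 in the fit with slide as a fixed term, and the call was lost with the mouse number as a replicate block (0.0957).

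Slco1a4 (OATP1A4, also known as OATP2) takes up organic anions, cardiac glycosides and bile acids. Its level was -0.94, -1.23, -0.41 and -1.27 in NZO mice 007, 003, 009 and 011. In B6 mice 011, 010, 015 and 009 the level was -0.28, -0.27, 0.17 and 0.22. The strains did not overlap, but the gap between NZO 009 and the lower B6 mice was small against the spread within each strain. The means were -0.97 ± 0.40 in NZO and -0.04 ± 0.27 in B6 (SD, n = 4 each), a log2 fold change of -0.93 (SE 0.22, 95% confidence interval -1.43 to -0.42, limma adjusted p = 0.0252). This call was not stable: the adjusted p was 0.0506, 0.0668, 0.0657, 0.0689 and 0.0729 without NZO 007, NZO 003, NZO 011, B6 015 and B6 009, and ranged from 0.0075 to 0.214 over all alternatives. The difference kept its direction within both scan days (-0.92 and -0.91) and within the shared slide (-1.18).

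**Figure D2:**
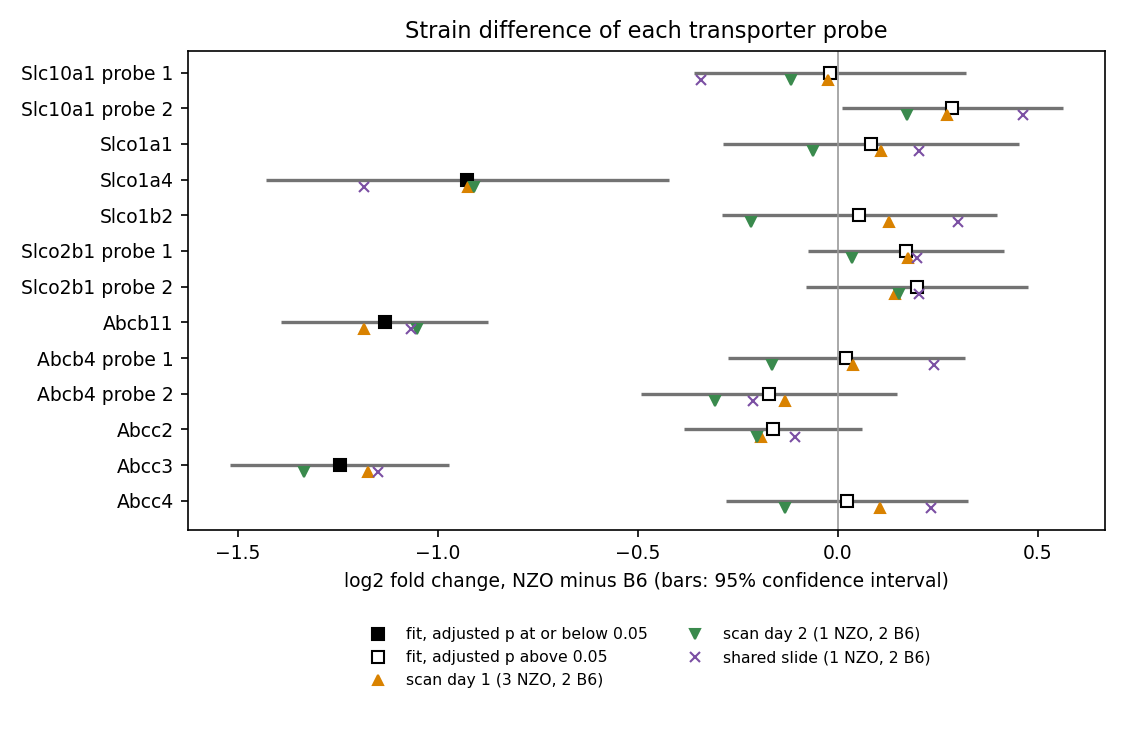
Log2 fold change (NZO minus B6) of each transporter probe with its 95% confidence interval, filled squares where the adjusted p was at or below 0.05. Triangles and crosses give the difference within each scan day and within the slide that held both strains. For Abcb11, Abcc3 and Slco1a4 these lie between -1.34 and -0.91, and for several of the other probes they fall on both sides of 0.

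The main uptake carriers did not pass the test. Probe 2 of Slc10a1, the more specific, ranged from 5.61 to 6.05 in NZO and from 5.4 to 5.65 in B6. Its log2 fold change was 0.29 (95% confidence interval 0.01 to 0.56, limma adjusted p = 0.166). Probe 1 ranged from 9.68 to 10.26 in NZO and from 9.87 to 10.17 in B6, with a log2 fold change of -0.02 (95% confidence interval -0.36 to 0.32). The strain differences of the probes differed by -0.31 within arrays, which did not pass an exact two-sided permutation test over the 70 splits of the arrays (p = 0.114, adjusted over 3 pairs of probes 0.343, smallest possible p 0.0286). With quantile normalization that p was 0.0286, unadjusted.

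Slco1b2 (OATP1B2), the main hepatic carrier of unconjugated bile acids and of bilirubin, ranged from 7.46 to 8.02 in NZO and from 7.53 to 7.90 in B6. Its log2 fold change was 0.05, and the interval allows a change between 0.818-fold and 1.32-fold. Slco1a1 (OATP1A1), a steroid and bile acid carrier known for its higher level in males, had a log2 fold change of 0.08 with an interval of 0.819-fold to 1.37-fold. Slco1a1, Slco1a4 and Slco1b2 lie near each other on chromosome 6. On the same arrays the log2 fold change of Slco1a4 was lower than that of Slco1a1 by -1.01 and than that of Slco1b2 by -0.98. These pairs were chosen after their values were seen, so the exact permutation p of 0.0286 for each, the smallest that 70 splits allow, is no independent evidence of a difference.

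Slco2b1 (OATP2B1), which carries steroid sulfates, had a pair of probes that share 38 bases and thus are no independent evidence for each other. Their log2 fold changes were 0.17 (interval 0.949-fold to 1.33-fold) and 0.20 (0.947-fold to 1.39-fold), and they differed by -0.03 (exact permutation p = 0.543). All 4 intervals of Slco1a1, Slco1b2 and Slco2b1 include no change and also changes of up to 1.32-fold to 1.39-fold upward.

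At the canaliculus Abcb4 and Abcc2 did not pass the test. Abcb4, which supplies the phospholipid of bile, was read by probe 1 (A_51_P249118, chr5:8959108-8959167) and by probe 2 (A_55_P1978696, chr5:8899682-8899741), which lies 59426 bases upstream and was designed on a cDNA from kidney. Probe 1 ranged from 6.44 to 6.98 in NZO and from 6.59 to 6.80 in B6, with a log2 fold change of 0.02 (interval 0.826-fold to 1.25-fold). Probe 2 had a log2 fold change of -0.17 (interval 0.711-fold to 1.11-fold), and the difference between the probes was 0.19 (exact permutation p = 0.286). Abcc2 ranged from 3.67 to 3.89 in NZO and from 3.85 to 4.08 in B6, with a log2 fold change of -0.16 (interval 0.766-fold to 1.04-fold, limma adjusted p = 0.320). Within arrays, the log2 fold change of Abcb11 was lower than that of Abcb4 (probe 1) by -1.15 and than that of Abcc2 by -0.97. The exact permutation p was 0.0286 for both, again the smallest possible and for pairs chosen after their values were seen.

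Abcc4, the other basolateral pump, ranged from -1.42 to -1.14 in NZO and from -1.52 to -1.05 in B6. Its log2 fold change was 0.02, with an interval of 0.824-fold to 1.25-fold. Within arrays the log2 fold change of Abcc3 was lower than that of Abcc4 by -1.27 (exact permutation p = 0.0286), a pair also chosen after the values were seen.

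**Figure D3:**
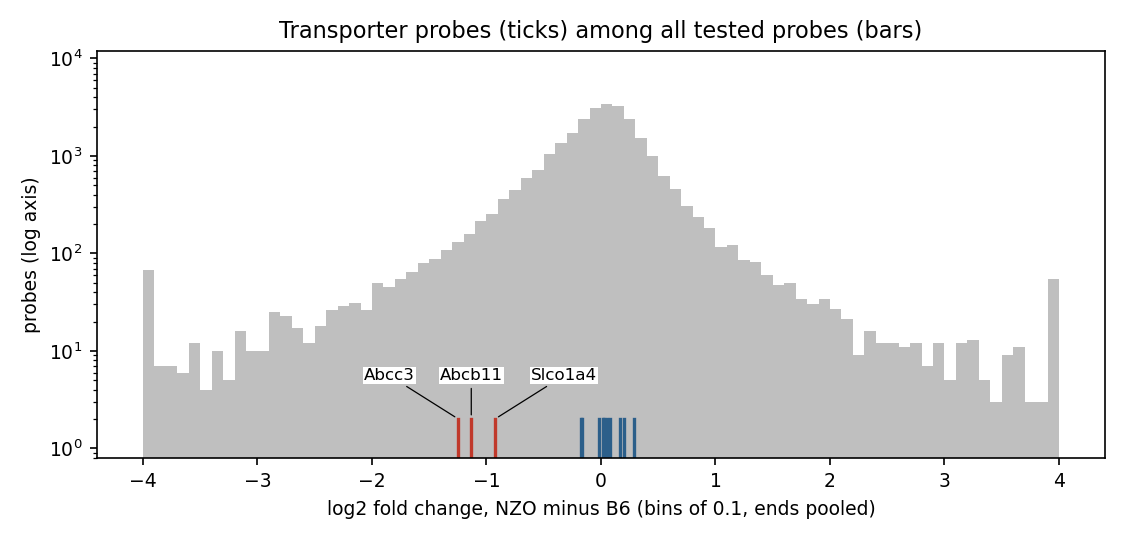
Number of probes (vertical axis, logarithmic) by log2 fold change (NZO minus B6) in bins of 0.1 for all 27643 probes tested, with values beyond the ends pooled. Ticks mark the 13 transporter probes, red where called. Abcc3, Abcb11 and Slco1a4 lie in the lower flank at -1.25, -1.13 and -0.93, and the other 10 lie between -0.17 and 0.29.

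The bases before the transcription start were read from RefSeq promoters (GRCm38.p6) for the element AGGTCA, the core of sites for nuclear receptors such as FXR and CAR, on either strand. Of 32851 promoters of 250 bases, 14.02% held it. It was found in 5 of the 13 promoters listed for 9 of the transporters, all but Abcc3. A match is only a run of letters. Abcb11, lower in NZO, and Abcc2, not called, are shown side by side, as 30 bases with the element in capitals. It begins 56 bases before the start of Abcb11 (chr2:69342655-69342684, minus strand) and 49 bases before the start of Abcc2 (chr19:43782247-43782276, plus strand). The promoter of Slco1a4 held no match.
Abcb11 promoter: actttaggccatTGACCTataagcaaatag
Abcc2 promoter: tgtcaggatgaaAGGTCAggagacttgcct

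Other carriers of bile acids, sterols, organic anions and cations were followed as a list of 32 genes, of which 26 had a probe tested. Of these 26, 3 were higher in NZO, 8 were lower and 15 were not called. The counts include Abcb1b and Slco4a1, whose probes entered the test only through the strain where they are higher. Over all 20159 gene names tested, 7.85% had only higher and 8.63% only lower calls. The median log2 fold change of the list was -0.26.

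Abcb1b (MDR1B), a pump for drugs and steroids, had the largest difference in this list. Its level was 1.05, 1.24, 1.66 and 1.19 in NZO mice 007, 003, 009 and 011, and -3.12, -3.09, -3.87 and -3.26 in B6 mice 011, 010, 015 and 009. The strains were far apart, and B6 015 was not well above background, so the probe entered the test through its NZO values and its p and fold are given as a description. The log2 fold change was 4.62 (SE 0.21, 24.5-fold, limma adjusted p = 4.36e-06). This size depends on the dim B6 values: the log2 fold change was 2.45 with normexp background correction and 2.97 in the deposited table. Slc22a7 (OAT2), an anion exchanger of the sinusoidal membrane, ranged from 7.39 to 7.57 in NZO and from 6.41 to 6.83 in B6, a log2 fold change of 0.86 (limma adjusted p = 0.00128, lost with slide as a fixed term at 0.113 and with the replicate block at 0.108).

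Slco4a1, an OATP that carries thyroid hormone, was well above background on 4 of 4 B6 arrays and on 0 of 4 NZO arrays. The probe thus entered the test through its B6 values alone, a route that favours a difference in this direction, and its p is given as a description. It was at least 2.92-fold lower in NZO, with each NZO array set to its own value or to the dimmest signal that counted as well above background there, whichever was higher (limma adjusted p = 0.000464). That size holds for the processed signal: the log2 fold change was -0.27 with normexp background correction and -0.78 in the deposited table, and the call was lost with the mouse number as a replicate block (adjusted p = 0.0559). Slco3a1 (OATP3A1) fell by 0.96 and 0.85 on the log2 scale on its 2 probes (limma adjusted p = 0.000937 and 0.0053). Both calls were lost with slide as a fixed term (0.146 and 0.106) and with the replicate block (0.08 and 0.0894). Abcg5, which forms the canalicular sterol exporter with Abcg8, fell by 0.82 (limma adjusted p = 0.0149). That call was lost when scaled to the array median (0.0549), by the methods' t-test (0.0674), and when the slide (0.296) or the mouse number (0.233) entered the fit as a fixed term or a replicate block. Slc10a2 (ASBT), the sodium-dependent carrier of ileum and bile duct epithelium, fell by 0.83 (limma adjusted p = 0.0285). That call was lost under 9 of the alternatives, without NZO 007, NZO 003, NZO 009 or B6 011 among them.

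Also followed and not called were Atp8b1, the flippase that protects the canalicular membrane, and Slc51b, the beta subunit of the basolateral bile acid transporter OST. Their log2 fold changes were -0.72 (95% confidence interval -1.24 to -0.21, limma adjusted p = 0.0693) and -0.36 (-1.20 to 0.49, limma adjusted p = 0.573). Atp8b1 passed under 3 alternatives.

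**Figure D4:**
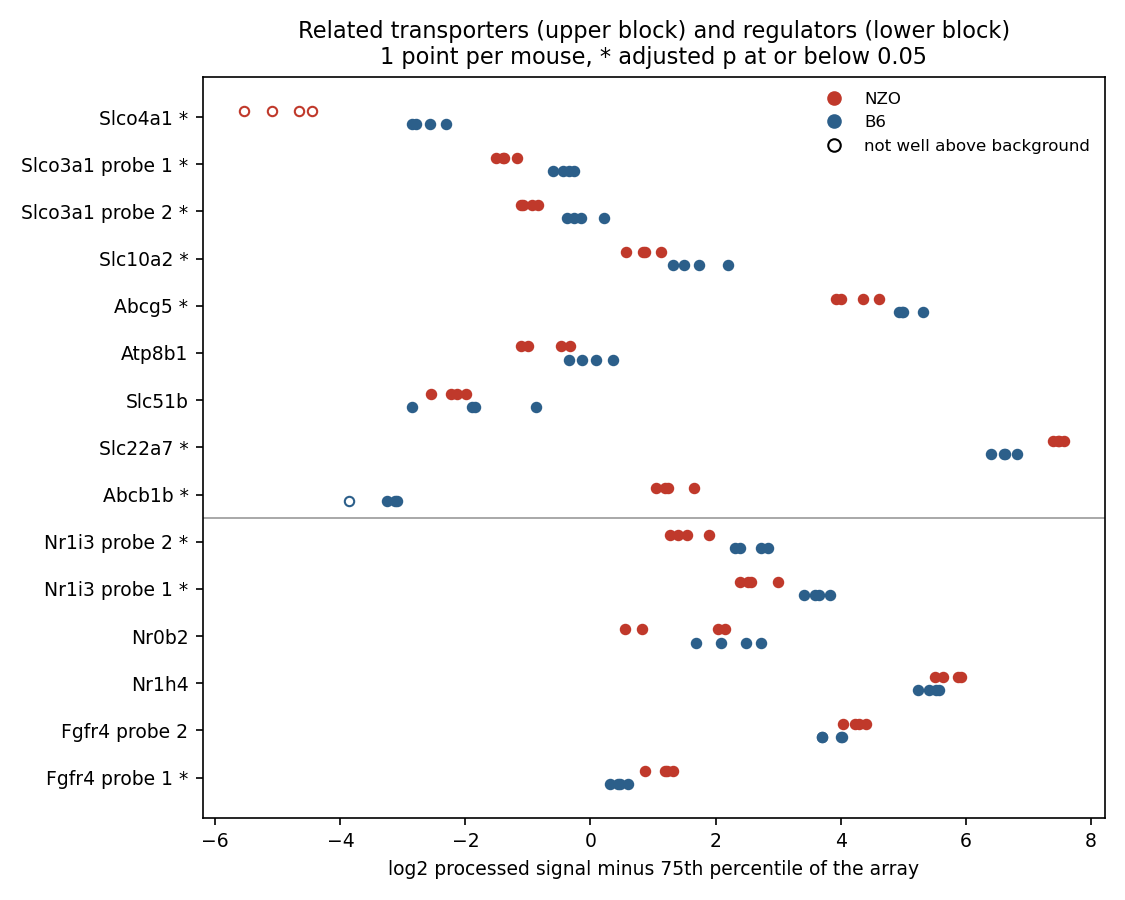
Level (horizontal axis, log2 processed signal minus the 75th percentile of the array) of the named transporters outside the set (upper block) and of regulators (lower block), 1 point per mouse, open where the probe was not well above background. Asterisks mark an adjusted p at or below 0.05. Abcb1b and Slc22a7 are higher and Slco4a1, Slco3a1, Slc10a2, Abcg5 and Nr1i3 lower in NZO, without overlap of the strains. The probes of Abcb1b and Slco4a1 entered the test only through the strain where they are higher.

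Among 23 regulators of these transporters, all tested, 1 was higher, 1 was lower and 21 were not called (median log2 fold change 0.06), shares below the 7.85% and 8.63% of all gene names. The gene called lower was Nr1i3 (CAR), the receptor whose activators are known to raise hepatic drug enzymes and several transporters. Its probe 1 was 2.56, 2.39, 3.0 and 2.53 in NZO mice 007, 003, 009 and 011, and 3.59, 3.66, 3.41 and 3.84 in B6 mice 011, 010, 015 and 009. The strains did not overlap. The log2 fold change was -1.01 (SE 0.16, limma adjusted p = 0.00337) on probe 1 and -1.04 (SE 0.18, limma adjusted p = 0.00568) on probe 2. With the slide as a fixed term it was -1.15 and -1.28, and both calls were lost (adjusted p = 0.0989 and 0.0949), as they were with the replicate block (0.102 and 0.0958).

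Fgfr4, the hepatic receptor of the ileal hormone that represses bile acid synthesis, was called higher on 1 of its 2 probes. The log2 fold changes were 0.70 (limma adjusted p = 0.00633) and 0.38 (limma adjusted p = 0.0852). The call was lost in the deposited table (0.0666), with slide as a fixed term (0.0904) and with the replicate block (0.137), and the second probe passed with trend and robust variance (0.0441). Nr1h4 (FXR), the bile acid receptor known to drive Abcb11, had a log2 fold change of 0.30 (95% confidence interval -0.00 to 0.60, limma adjusted p = 0.181). Nr0b2 (SHP), which FXR is known to induce, had -0.85 (-1.79 to 0.09, limma adjusted p = 0.222). In Nr0b2 the NZO mice ranged from 0.56 to 2.16 and the B6 mice from 1.68 to 2.72, so that the strains overlapped.

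Markers of other liver cells also differed, and Abcc3 and Slc10a2 are known in bile duct epithelium as well as in hepatocytes or ileum. Of 7 bile duct markers, 6 were tested. Sox9 (log2 fold change -1.47) and Spp1 (-0.89) were lower, and Cftr (1.15) was higher. The Cftr probe entered the test through its NZO values, with 3 of 4 B6 arrays above background. Krt19 (-0.65), Krt7 and Slc4a2 (0.35) were not called. Krt7 entered through its B6 values and was not well above background in NZO 003 and NZO 011, so its size is not given. Over all gene names tested, 7.85% had only higher and 8.63% only lower calls. Epcam was above background on 0 of 4 NZO and 3 of 4 B6 arrays. The summed signal of the 6, as multiples of the 75th percentile, was 16.3, 18.1, 14.2 and 15.2 in NZO mice 007, 003, 009 and 011. In B6 mice 011, 010, 015 and 009 it was 14.6, 14.2, 17 and 13.8, and the strains overlapped. The brightest probe was that of Slc4a2, an anion exchanger that other cells also express. The mean log2 level of the 6, in which each marker has equal weight, was -0.90, -0.93, -0.77 and -1.49 in the NZO mice and -0.65, -0.69, -0.48 and -0.60 in the B6 mice in the same order. By this measure all NZO mice lay below all B6 mice. That separation depends on including Krt7, which was dim in NZO 003 and NZO 011, and it is given as a description.

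Of 6 Kupffer cell and leukocyte markers, 3 were lower, among them Clec4f (-1.13) and Cd68. Cd68 had -0.42 on 1 of its 2 probes, and the other (-0.25) was not called. Limma called 0 higher (1 at an unadjusted p under 0.05, 0 by the methods' t-test after adjustment). Over all gene names tested, 7.85% had only higher and 8.63% only lower calls. Lyz2, not called, went the other way, from 1.27 to 1.74 in NZO and from 0.88 to 1.29 in B6. Cd3e, also not called, ranged from 2.07 to 3.61 in NZO and from 1.84 to 2.75 in B6. The summed signal of this list was 40.0, 34.7, 30.7 and 31.8 in the NZO mice. In the B6 mice it was 53.7, 51.9, 65.4 and 50.6, in the same order. These sums did not overlap, and Clec4f was brightest. Of 4 stellate cell markers Pdgfrb (-1.0) was lower. The sum of the 4 was 1.92, 1.94, 1.75 and 1.55 in NZO and 2.68, 2.68, 2.55 and 2.32 in B6, also without overlap, with Lrat brightest. Of 4 endothelial markers Lyve1 (-0.62) was lower and Stab2 was higher on 1 of 3 probes (0.48). The other Stab2 probes had log2 fold changes of -0.93 (limma adjusted p = 0.0508, without overlap of the strains) and -0.44 and were not called. The summed endothelial signal ranged from 61.9 to 82.6 in NZO and from 62.9 to 75.05 in B6 and overlapped, with the mean log2 level from 1.18 to 1.57 in NZO and from 1.58 to 1.86 in B6. Of 2 red cell markers Alas2 was higher (0.90). Slc4a1, not called, ranged from -2.14 to -0.79 in NZO and from -2.44 to -1.09 in B6. The 3 adipocyte markers were above background on no array, and of 3 exocrine pancreas markers only Cela1 was (-0.53, not called). The part of these cells in the lower levels of Abcb11, Abcc3, Slco1a4 and the other genes was not tested.

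**Figure D5:**
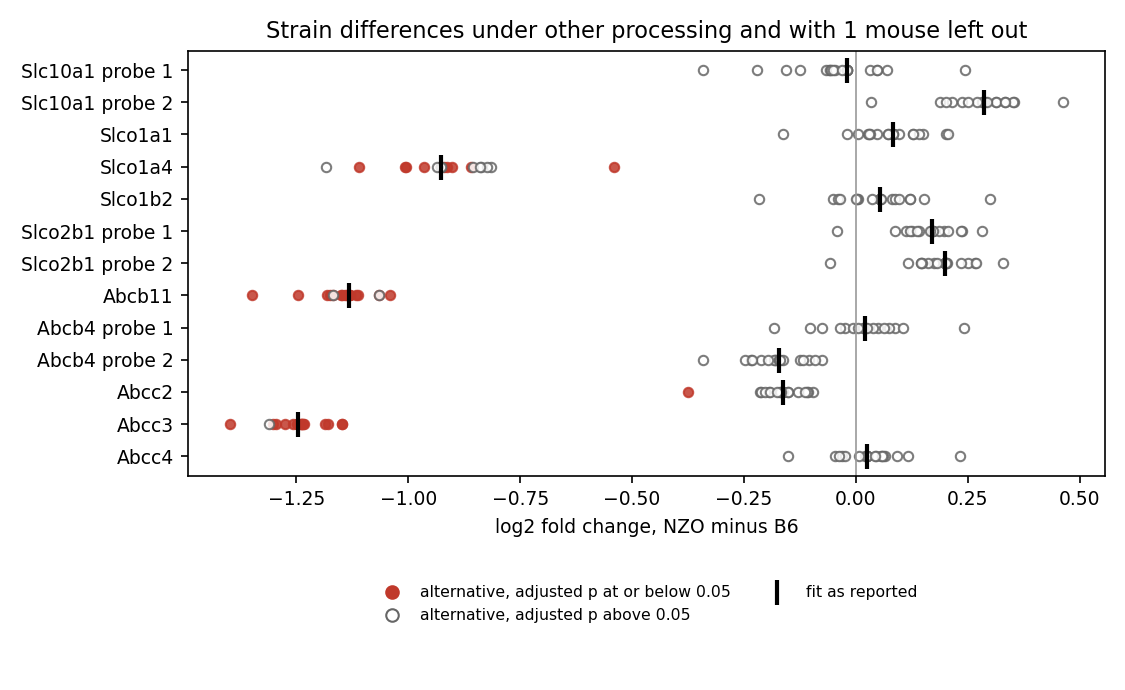
Log2 fold change (NZO minus B6) of each transporter probe as reported (bar) and under 20 alternatives (points, filled where the adjusted p was at or below 0.05), among them the omission of each mouse. Abcb11 lies between -1.35 and -1.04, Abcc3 between -1.40 and -1.15 and Slco1a4 between -1.18 and -0.54, while Slc10a1 probe 1, Slco1a1, Slco1b2, Slco2b1, Abcb4 probe 1 and Abcc4 have points on both sides of 0.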

How the data were processed

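Liver RNA of 8 mice was hybridised to 1-colour Agilent arrays (probe positions on mm9), 1 array per mouse. The authors deposited the intensity values of each scan, with flags for background and saturation. The submitters' processing notes name Agilent Feature Extraction 9.1, whereas the file headers name 11.0.1.1. The table that holds all arrays equals the deposited raw median intensity (59305 of 59305 spots on each array, tolerance 0.01) and was used only as an alternative. The processed signal, background-subtracted by the scanner software and not scaled between arrays, was used here: log2 was taken without control spots and without the 96 to 137 outlier spots of each array, the 75th percentile of the array was subtracted and spots of a probe were averaged.

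Probes whose flag put them well above background in every mouse of NZO, of B6 or of both were fitted with limma 3.58.1 (R 4.3.3) with no block, and p-values were Benjamini-Hochberg adjusted over all of them. Probes of a gene stayed separate. Python 3.11.15, pandas 2.3.3 and matplotlib 3.10.9 made the sequence tables and plots. Replicates correlated at 0.973 to 0.991. The arrays came from 5 slides, of which 1 held both strains, and from 2 scan days. Mouse numbers 009 and 011 occur in both strains, and whether they pair mice was checked. A fit with the mouse number as a block compares the strains through these mice alone.

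The members and lists were chosen with earlier results of these data known. Named were all transporter probes and, of each other list, at most the 6 called genes with the largest change plus fixed partners. The lists held other transporters, regulators, membrane anchoring, bile acid conjugation and markers of 8 cell types. Gsta1 and Ceacam1 had no probe under their names, and 1 gene of the anchoring list is not reported here. On simulated arrays with 200 planted changes among 27635 probes, the fit recovered 57% of log2 changes of 1 and 80% of changes of 2, with 8 unchanged probes called. The alternatives were normexp correction (offset 50), quantile or median scaling, the deposited table, 2 other filters on dim probes, slide and scan day as terms, the mouse number as a block, the methods' t-test, limma with trend and robust variance, and the omission of each mouse.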

Additional observations from a re-analysis of the deposited data

Results flagged for a closer look

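Of 86 sets of 4 values of a strain, 2 held a value far from the other mice by Dixon's criterion, which chance alone meets in about 1 of 20 sets. None was in a transporter of the main set. For Abcg5 the level of B6 015 was 5.31, and the other B6 mice lay between 4.93 and 5.0. For Rdx (A_51_P430950), which anchors canalicular proteins to actin, the level of NZO 007 was 2.54, and the other NZO mice lay between 3.32 and 3.47.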

How the results depend on the processing

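The lower levels of Abcb11, Abcc3 and Slco1a4 kept their direction under all 20 alternatives. The adjusted call held under 18 of them for Abcb11, 19 for Abcc3 and 11 for Slco1a4. The mouse number as a replicate block leaves the comparison to mice 009 and 011 of each strain. Limma then called 0 transporter probes (Abcb11 adjusted p = 0.0965, Abcc3 0.0957, Slco1a4 0.139). At the thresholds of the methods 0 transporter probes were higher and 3 lower. Of all probes, limma then called 72 higher and 134 lower after adjustment. The mouse numbers showed no pairing: deviations of same-numbered mice correlated at -0.26 and -0.00, against -0.35 to 0.35 over all pairs of an NZO and a B6 mouse. With the slide as a fixed term, 1 transporter probe was called, and 497 probes in all were higher and 984 lower. Slco1a4 was also not called with no filter on dim probes (adjusted p = 0.0688) and by the methods' t-test (adjusted p = 0.0835), and Abcc2 was called in the deposited table (-0.37, adjusted p = 0.0335). Except where a value shows it, the cause was not tested.

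The deposited table, not scaled between arrays, shifted the median of all log2 fold changes to -0.15 and gave 991 higher and 3357 lower calls (22.8% higher, against 47.7% as reported), or 603 higher at the thresholds of the methods. In it Slco1a1 (-0.16), Slco1b2 (-0.22), Slco2b1 (-0.042 and -0.057), Abcb4 probe 1 (-0.18) and Abcc4 (-0.15) turned negative, values that include that shift, and the difference between the Slco2b1 probes became 0.016. By the methods' t-test 1193 probes were lower after adjustment, and 1292 were higher and 1610 lower at the thresholds of the methods. At those thresholds normexp correction gave 651 higher and 614 lower, and the filter on all 8 arrays 1190 lower.

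Differences near 0 changed sign elsewhere: Slc10a1 probe 1 with the array median (0.047) and the replicate block (0.24), Slco1b2 with normexp (-0.051) and quantile normalization (-0.040), Abcb4 probe 1 with normexp (-0.025), quantile normalization (-0.10) and scan day (-0.035), Abcc4 with the replicate block (-0.047), and Rdx (A_55_P2183172) with the slide as a fixed term (0.25). Without 1 mouse, Slc10a1 probe 1 ranged from -0.12 to 0.068, Slco1a1 from -0.019 to 0.21, Slco1b2 from -0.036 to 0.15, Abcb4 probe 1 from -0.075 to 0.11 and Abcc4 from -0.039 to 0.12. Then 2 to 3 transporter probes were called lower, with 1402 to 1864 probes in all called higher and 1503 to 1933 lower.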

Other observations

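Of 18 tested genes that build the canaliculus or anchor its transporters, 2 were higher in NZO, 3 were lower and 13 were not called (median log2 fold change 0.06). Over all gene names tested, 7.85% had only higher and 8.63% only lower calls. Cldn2, a pore-forming tight junction protein, was higher on 2 of 2 probes (log2 fold change 0.85 and 0.75, limma adjusted p = 0.00875 and 0.00509). Myo5b, a motor of vesicle traffic to the canaliculus, was higher on both probes that were above background on all 8 arrays (0.77 and 0.60). Its other probe entered the test through its NZO values, with 1 of 4 B6 arrays above background, and its size there is not given. Lower were the scaffold genes Slc9a3r1 (-0.70, limma adjusted p = 0.00258) and Slc9a3r2 (-0.54 and -0.44), and the actin linker Msn (-0.37, limma adjusted p = 0.0441, lost under 14 of 20 alternatives). Slc9a3r2 lost its call under 6 and 15 alternatives on its 2 probes. With slide as a fixed term and with the mouse number as a replicate block, Cldn2 (adjusted p up to 0.133 and 0.213), Myo5b (0.117 and 0.147) and Slc9a3r1 (0.190) also lost their calls. In the deposited table the second probes of Cldn2 (0.0528) and Myo5b (0.264) did so too. Rdx (-0.19 and -0.34), which is known to hold Abcc2 at the membrane, and Pdzk1 (0.40 and 0.27) were not called.

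Of 11 tested genes of bile acid conjugation and carriage inside the cell, limma called 1 higher and 0 lower (4 higher and 0 lower at an unadjusted p under 0.05, and 1 and 0 by the methods' t-test after adjustment), with a median log2 fold change of 0.22. The 1 of 11 is near the 7.85% of all gene names with only higher calls. The gene was Acnat2, a peroxisomal acyltransferase. Its level on A_55_P2165091 was 2.85, 3.53, 2.99 and 4.20 in NZO mice 007, 003, 009 and 011, and 1.15, 0.26, 1.86 and 1.21 in B6 mice 011, 010, 015 and 009. The strains did not overlap, and the log2 fold changes of its probes were 2.27 and 2.33 (limma adjusted p = 0.00585 and 0.0038). Both calls were lost with slide as a fixed term (0.193 and 0.20) and with the replicate block (0.102 and 0.0887).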
